A study of Mus musculus with 6 samples.

Results

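Limb mesenchyme identity factors were examined as accessible chromatin at 10 genes, out of 21853 protein-coding genes in the annotation. The genes were Prrx1, Prrx2, Twist1, Twist2, Pitx1, Tbx2, Tbx3, Tbx4, Tbx5 and Tbx15, taken as a named list and not by a cutoff on any measured value. The list was chosen with earlier results of these data known. For each gene, called ATAC-seq peaks were collected within 1 kb of any annotated transcription start site (TSS) of a protein-coding transcript and across its locus, meaning the gene body and 50 kb upstream of the outermost TSS. All 10 genes were found in the annotation. Across the 6 libraries their loci held 36 merged regions of 63840 in the whole series, a merged region being the union of peaks that overlap between libraries.

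ATAC-seq marks open DNA with a transposase that inserts sequencing adapters where chromatin is accessible. The cells were untreated skeletal stem and progenitor cells (SSPCs) of C57BL/6 mice, with 3 libraries from young and 3 from middle-aged animals. The ages are labelled in those words only, and all 6 libraries share the strain, the absence of treatment and the source. The cells were grown to their first passage from whole marrow of the tibia and femur, both hindlimb bones, and no sort is described for them. The labels speak of a minimum of 3 mice without tying a library to an animal, so the p-values measure the spread between libraries. In these bulk libraries, a site open in fewer cells and a site less open in every cell cannot be told apart.

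Limb mesenchyme arises from lateral plate mesoderm under transcription factors that set its identity and, for some of them, its position in the body. Prrx1 and Prrx2 are homeodomain factors of early limb bud mesenchyme, and Twist1 and Twist2 are basic helix-loop-helix (bHLH) factors that restrain osteoblast differentiation. Pitx1 and Tbx4 act in hindlimb buds and Tbx5 in forelimb buds, while Tbx2, Tbx3 and Tbx15 are T-box repressors that pattern limb and shoulder skeleton in both.

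The sequences the results turn on are given first, as 300 bp each, 5′ to 3′ on the strand stated, from the reference genome of build mm10 (GRCm38). CpG dinucleotides are in capitals, because promoters rich in them are open in most cell types. The first pair lies immediately upstream of the outermost TSSs that had a peak in every library, namely Twist1 at chr12:33957371-33957670 and Tbx3 at chr5:119670369-119670668, both on the plus strand, each ending on the base before the TSS.
Twist1 TSS region: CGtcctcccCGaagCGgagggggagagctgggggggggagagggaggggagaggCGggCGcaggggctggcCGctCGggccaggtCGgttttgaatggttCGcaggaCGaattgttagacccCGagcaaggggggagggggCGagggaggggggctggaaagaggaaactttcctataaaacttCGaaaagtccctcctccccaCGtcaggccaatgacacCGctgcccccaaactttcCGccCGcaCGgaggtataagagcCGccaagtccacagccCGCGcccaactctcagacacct
Tbx3 TSS region: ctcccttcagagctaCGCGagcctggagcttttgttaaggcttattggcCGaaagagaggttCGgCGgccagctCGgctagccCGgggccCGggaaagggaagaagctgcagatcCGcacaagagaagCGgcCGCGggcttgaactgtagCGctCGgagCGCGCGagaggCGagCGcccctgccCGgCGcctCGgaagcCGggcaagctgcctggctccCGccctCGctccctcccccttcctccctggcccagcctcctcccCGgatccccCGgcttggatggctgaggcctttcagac
The Tbx15 region called in every library is instead intronic, at chr3:99253135-99253434 on the plus strand, next to an inner TSS. The Tbx4 sequence, at chr11:85844117-85844416 on the plus strand, is intergenic and represents the cluster of peaks upstream of that gene.
Tbx15 internal TSS region: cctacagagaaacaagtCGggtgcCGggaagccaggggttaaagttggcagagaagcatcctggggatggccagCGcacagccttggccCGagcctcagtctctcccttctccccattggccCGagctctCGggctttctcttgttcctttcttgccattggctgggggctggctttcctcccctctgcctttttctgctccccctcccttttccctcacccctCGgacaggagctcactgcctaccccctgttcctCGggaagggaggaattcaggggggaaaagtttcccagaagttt
Tbx4 upstream region: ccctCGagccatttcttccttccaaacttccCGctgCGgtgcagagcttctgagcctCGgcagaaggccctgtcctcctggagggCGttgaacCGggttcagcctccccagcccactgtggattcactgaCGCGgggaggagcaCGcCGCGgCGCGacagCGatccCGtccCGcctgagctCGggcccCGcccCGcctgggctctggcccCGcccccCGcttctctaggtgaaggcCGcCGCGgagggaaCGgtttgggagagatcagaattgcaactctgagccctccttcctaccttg
The promoters of Pitx1 at chr13:55836193-55836492 and Prrx1 at chr1:163313711-163314010, both on the minus strand, and of Tbx5 at chr5:119832368-119832667 on the plus strand are shown because no library had a peak there.
Pitx1 promoter: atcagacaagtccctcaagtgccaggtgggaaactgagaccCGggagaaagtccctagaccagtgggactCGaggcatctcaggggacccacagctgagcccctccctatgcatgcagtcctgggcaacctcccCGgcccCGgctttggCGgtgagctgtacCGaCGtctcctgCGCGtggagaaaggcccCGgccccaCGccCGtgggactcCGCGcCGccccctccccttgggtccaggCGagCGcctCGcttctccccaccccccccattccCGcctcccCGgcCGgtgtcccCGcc
Prrx1 promoter: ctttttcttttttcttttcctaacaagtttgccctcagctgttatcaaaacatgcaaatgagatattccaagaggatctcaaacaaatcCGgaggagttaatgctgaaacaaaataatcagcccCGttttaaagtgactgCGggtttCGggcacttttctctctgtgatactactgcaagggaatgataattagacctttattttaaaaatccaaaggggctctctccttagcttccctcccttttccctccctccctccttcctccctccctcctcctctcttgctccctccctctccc
Tbx5 promoter: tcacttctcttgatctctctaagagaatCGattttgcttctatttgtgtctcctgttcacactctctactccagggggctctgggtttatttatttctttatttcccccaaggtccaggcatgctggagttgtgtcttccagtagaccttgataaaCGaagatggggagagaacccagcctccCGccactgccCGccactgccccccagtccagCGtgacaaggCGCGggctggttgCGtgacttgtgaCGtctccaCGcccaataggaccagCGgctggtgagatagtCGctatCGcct
The Tbx3 sequence held 27 CpG dinucleotides, the Tbx4 upstream sequence 25, the Pitx1 promoter 22 and the Twist1 sequence 21. The Tbx5 promoter held 13, the Tbx15 sequence 8 and the Prrx1 promoter 4. Over the 300 bp shown, uncalled Pitx1 thus held about as many CpG dinucleotides as called Twist1. Over 500 bp either side of the outermost TSS, the observed over expected CpG ratio was 0.634 for Pitx1 and 0.870 for Twist1. Each sequence was searched on both strands for a T-box site (AGGTGTGA), a PITX site (TAATCC), a homeodomain site (TAATTA), the E-boxes CATATG and CAGATG, an AP-1 site (TGANTCA) and a RUNX site (TGTGGT). The only match was TAATTA at position 188 of the Prrx1 promoter, counted from its 5′ end, a motif that 5.97% of all promoters of this length held. The Twist1 and Tbx3 sequences avoid annotated exons, with centres −211 and −215 bp from the summit of the best-ranking peak. They therefore miss part of the called regions. Over those whole regions, Twist1 held 1 RUNX site and Tbx3 held 1 AP-1 site, and neither held any other searched motif.

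The libraries differed in length and depth. Young 1, 2 and 3 held 35953, 43941 and 27628 peaks and middle-aged 1, 2 and 3 held 46364, 46745 and 48344. Relative depth, taken as the genome-wide background solved from the deposited values, ran from 1.65 to 3.75 extended reads per base in young and from 2.40 to 2.79 in middle-aged libraries. Young 3 had both the shortest list and the lowest background. Young 1 had the highest background, 3.75, but a shorter list than any middle-aged library, so list length did not follow the background alone. The least summit pileup called ran from 8 to 13 reads, so a weaker site was not detectable at this depth, and the absence of a peak does not show closed chromatin.

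The label SSPC was set against marker genes, counting those with a TSS peak. Of all protein-coding genes, 48.4% had one in all 6 libraries and 38.5% in none. Of 8 SSPC markers, 3 had one in all 6 libraries, 4 in some and 1 in none. Kitl, a niche factor for blood stem cells, was called in all 6, and Lepr, the receptor most used to define these cells in adult marrow, in none. The SSPC markers with a TSS peak numbered 7, 6 and 3 in young 1, 2 and 3 and 6, 7 and 7 in the middle-aged libraries. Of 10 hematopoietic markers, 8 were called in all 6 libraries and 2 in some, with Ptprc (CD45) called throughout. They numbered 9, 10 and 9 in young libraries against 8, 9 and 9 in the middle-aged ones. Of 8 endothelial markers 1 was called throughout (Cdh5, an endothelial cadherin) and 3, Tie1 among them, in none, with 2 to 3 per young and 3 to 5 per middle-aged library. None of 4 hepatocyte markers was called in any library, Alb among them, and of 4 neuronal markers Rbfox3 and 2 others were called in none and Snap25 in 3 libraries. Promoters of blood cell genes were thus called in libraries of both ages, and their part in the results below was not tested.

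Among the identity factors, Twist1, Tbx3 and Tbx15 had a TSS peak in all 6 libraries, which is 3 of 10 beside 48.4% of all protein-coding genes. Prrx2, Tbx2 and Twist2 had one in some libraries. Prrx1, Pitx1, Tbx4 and Tbx5 had none in any library, which is 4 of 10 beside 38.5% of all genes. Members with a TSS peak numbered 4, 4 and 3 in young 1, 2 and 3 and 5 in each middle-aged library, while the share of all genes with one ran from 49.5% to 56.8% in young and from 57.4% to 58.0% in middle-aged libraries. The map of ranks by gene and library shows these calls with the strength of each, as the percentile of the peak by −log10 q within its own list, where 100 is the strongest peak of that library.

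**Figure D1:**
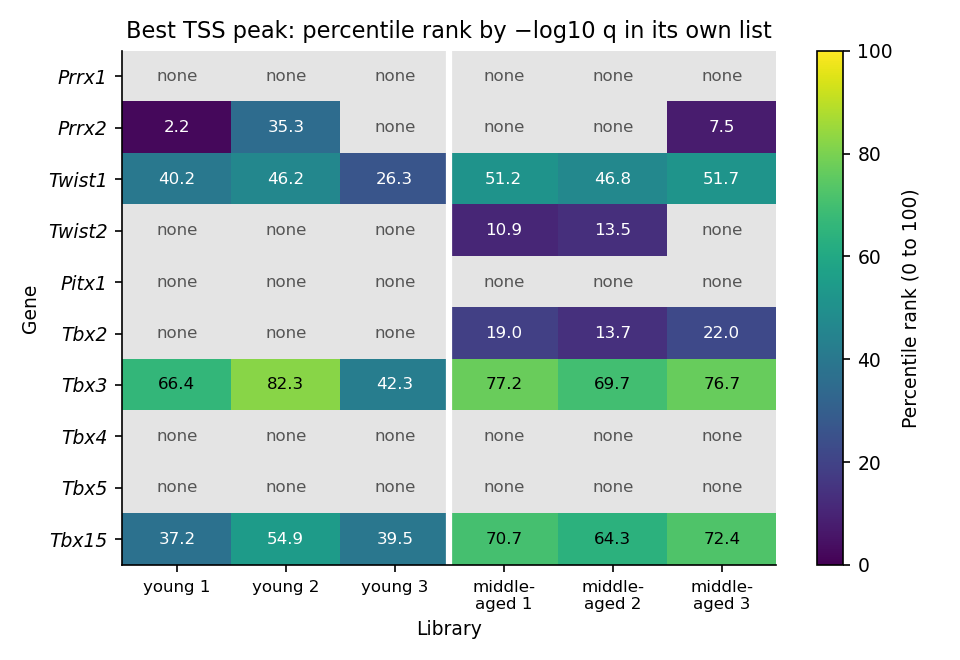
Best TSS peak of each gene (rows) in each library (columns), coloured and labelled by its percentile rank by −log10 q in its own peak list (0 to 100), with grey cells marked none where no peak was called. Twist1, Tbx3 and Tbx15 are filled in all 6 libraries, Tbx2 in the 3 middle-aged ones, and Prrx1, Pitx1, Tbx4 and Tbx5 in none.

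Tbx3, a T-box repressor expressed at the limb margins, had the strongest TSS peak of the 10 genes on average. It ranked at 66.4, 82.3 and 42.3 in young 1, 2 and 3 and at 77.2, 69.7 and 76.7 in middle-aged 1, 2 and 3. The young values spanned the middle-aged ones, with young 2 the highest of all 6 and young 3 the lowest. Young libraries averaged 63.7 ± 20.1 (SD, n = 3), against 74.5 ± 4.16 (SD, n = 3) for the middle-aged group, and the groups overlapped (difference 10.8, exact permutation test, two-sided p = 0.6). This gap was 0.174 without young 3 and 20.2 without young 2. The peak was 694 to 858 bp wide, its summit lay within 100 bp of the outermost TSS in every library, and its summit pileup was 45, 63 and 22 reads in young libraries against 53, 41 and 56 in the middle-aged ones. Its mean rank of 69.1 was above that of 21.9% of the 10569 genes called in all 6 libraries, whose median was 84.9.

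Twist1, which delays osteoblast differentiation and keeps mesenchyme in an early state, had a weaker TSS peak. Its rank was 40.2, 46.2 and 26.3 in young 1, 2 and 3 against 51.2, 46.8 and 51.7 in middle-aged 1, 2 and 3. Every middle-aged value lay above every young one, by a margin of under 1 point between young 2 and middle-aged 2. Young libraries averaged 37.6 ± 10.2 (SD, n = 3), against 49.9 ± 2.70 (SD, n = 3) for the middle-aged group, a difference of 12.4 (exact permutation test, two-sided, p = 0.1, which 3 against 3 libraries cannot go below). Without young 3 the difference was 6.72. Only 4.11% of the genes called in all 6 libraries had a lower mean rank than Twist1. The locus holds this region alone, split into 2 peaks in young 1.

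Tbx15, a repressor needed for shoulder and limb bones, was called beside an inner TSS and not at its outermost one. The region, chr3:99253035-99253474, is intronic and 12.9 kb inside the gene, and its best peak ranked at 37.2, 54.9 and 39.5 in young 1, 2 and 3 and at 70.7, 64.3 and 72.4 in middle-aged 1, 2 and 3. All 3 middle-aged values lay above all 3 young ones. Young libraries averaged 43.9 ± 9.63 (SD, n = 3), against 69.1 ± 4.28 (SD, n = 3) for the middle-aged group, a difference of 25.2 that carries the smallest possible value of the exact permutation test (two-sided p = 0.1) and so passes no threshold. Its summit pileup over the genome-wide background of the library was 8.27, 12.4 and 12.7 in young libraries against 16.9, 15.8 and 18.3 in the middle-aged ones. A neighbouring region over the inner TSS itself was called in 4 libraries, young 1, young 2, middle-aged 2 and middle-aged 3.

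Higher ranks in middle-aged libraries were common at other genes too. Of the 10569 genes called in all 6 libraries, 30.6% had no overlap between groups with middle-aged higher, and 0.274% with middle-aged lower. The median difference over those genes was 4.97 points (quartiles 1.56 and 10.6). The differences of Twist1, Tbx3 and Tbx15 lay above 79.8%, 75.8% and 96.8% of them. Their mean ranks were above only 4.11%, 21.9% and 10.4% of the same genes, whose median rank was 84.9. A high rank leaves less room to rise, and differences were not compared among genes of like rank. A longer list places a given peak at a higher percentile, so the ranks were also taken among the 22403 regions that all 6 libraries share, an alternative chosen after seeing the data. On that scale Twist1 had a mean of 15.9 in young and 13.5 in middle-aged libraries, Tbx3 one of 48.3 and 47.5, and Tbx15 one of 21.7 and 37.7. The direction of Twist1 and Tbx3 thus turned with the scale and that of Tbx15 did not. The Tbx15 groups lay close there, with young 3 at 29.5 and middle-aged 2 at 30.1. With equally long lists the Tbx15 difference was 18.6 (exact permutation test, two-sided p = 0.2).

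**Figure D2:**
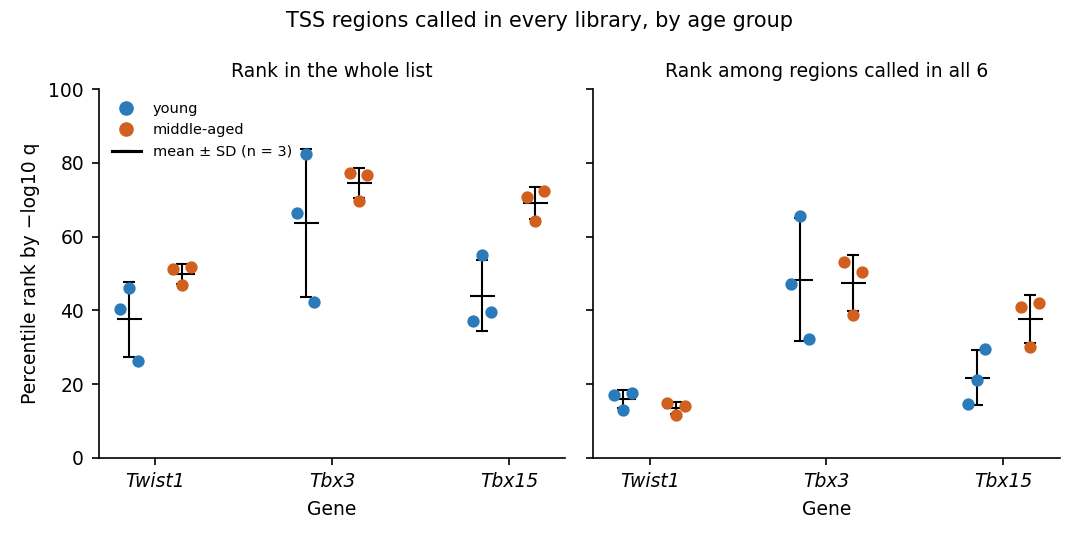
Percentile rank by −log10 q (vertical axis, 0 to 100) of the TSS regions of Twist1, Tbx3 and Tbx15 in young (blue) and middle-aged (orange) libraries, with mean and SD (n = 3), in the whole list (left) and among the regions called in all 6 libraries (right). Tbx15 is higher in middle-aged libraries in both panels, whereas the means of Twist1 are 37.6 and 49.9 on the left and 15.9 and 13.5 on the right.

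A limma fit over those 22403 shared regions gave 0 calls for age at an adjusted p under 0.05, and 1809 regions, 8.07%, at an unadjusted p under 0.05. Of the 7 shared regions in the 10 loci, 3 had an unadjusted p under 0.05, all with middle-aged higher. The first lies 6.6 kb upstream of Prrx2 in an exon of Asb6, a neighbouring gene, at chr2:30828172-30828557. It ranked at 17.6, 15.3 and 13.9 among the shared regions in young 1, 2 and 3 and at 55.1, 38.4 and 47.4 in middle-aged 1, 2 and 3, with means of 15.6 and 47.0 (difference 31.4, SE 4.72, limma adjusted p = 0.461). This was the largest difference among the 7 regions. The second lies 19.9 kb upstream of Tbx2 in an intron of Bcas3, at chr11:85812462-85812856, with mean shared ranks of 36.0 and 53.3 (difference 17.3, SE 4.63, limma adjusted p = 0.487). The Tbx15 region was the remaining one (difference 16.0, SE 5.33, limma adjusted p = 0.536). None of these passed the threshold.

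Tbx2, a close relative of Tbx3 that represses cell cycle inhibitors, had a TSS peak in all 3 middle-aged libraries and in no young one. It ranked at 19.0, 13.7 and 22.0 in middle-aged 1, 2 and 3, low in each list, with summit pileups of 18, 17 and 21 reads. The region, chr11:85832889-85833337, lies in an exon of Tbx2 with its midpoint 562 bp past the TSS. Of all genes 0.476% showed this pattern and 0.00458% the opposite one. Among merged regions it was the only one in the 10 loci called in all middle-aged and no young libraries, beside 2.21% of all regions, and no region was called in all young libraries alone, beside 0.036%. The count of 1 became 2 without young 1, 3 without young 2, 4 without middle-aged 1 and 3 without middle-aged 3. When every list was cut to its 27628 best peaks, the length of the shortest, the peak was absent from the middle-aged lists as well. The count stayed at 1 at a −log10 q of at least 5 and with lists thinned to the lowest background. Rescaled to the background of each young library, the middle-aged Tbx2 peaks had a −log10 p of 5.15 to 11.4. That was above the lowest value in the young list in 9 of 9 pairings. The rescaling assumed equal enrichment over background in both libraries, so it cannot show whether such a peak was detectable in the young libraries. The cause of the pattern was not tested.

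Twist2, which acts like Twist1 in dermal and osteoblast precursors, was called at its TSS only in the first and second middle-aged libraries, where it ranked at 10.9 and 13.5. The peaks were weak, with summit pileups of 14 and 15 reads. Prrx2, the homeodomain partner of Prrx1, was called in young 1, young 2 and middle-aged 3 at ranks of 2.23, 35.3 and 7.48, at an inner TSS with summits 10299 to 10371 bp past the outermost one. Libraries of both ages were among the called and the uncalled, and young 2 stood well above the other 2 calls.

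Prrx1, whose enhancer drives a widely used limb mesenchyme Cre, had no TSS peak but held 6 regions, of which 5 lay in the gene body, all intronic. Its locus had 1, 1 and 0 peaks in young 1, 2 and 3 against 2, 4 and 4 in middle-aged 1, 2 and 3. Each middle-aged library had more than any young one (difference 2.67, exact permutation test, two-sided p = 0.1). Twist2 showed the same separation, with 0, 1 and 0 peaks in young libraries against 2, 3 and 3 in the middle-aged ones (difference 2.33, exact permutation test, two-sided p = 0.1). These are 2 of 10 genes, beside 7.78% of all genes with more peaks in every middle-aged library and 0.0641% with fewer. With every list cut to 27628 peaks neither separation remained, as the mean of Prrx1 was 0.333 in young and 0 in middle-aged libraries and Twist2 had 0 in both groups. The most widely called Prrx1 region, chr1:163284078-163284585, was present in young 1 and in all 3 middle-aged libraries, 29.4 kb inside the gene, at ranks from 23.4 to 30.8.

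The loci of the remaining genes overlapped between ages. Prrx2 had 5, 7 and 4 peaks in young libraries against 4, 6 and 8 in the middle-aged ones, and Tbx15 had 2, 3 and 1 against 1, 4 and 4. Tbx2 had 2, 1 and 1 against 3, 2 and 3, and Tbx3 had 1, 2 and 1 against 3, 3 and 1. Twist1 had 2, 1 and 1 against 1, 1 and 1. Over the 10 loci the peaks summed to 15, 18 and 9 in young libraries against 18, 27 and 27 in the middle-aged ones, a mean of 14 against 24. With each list cut to its 27628 best peaks the mean was 8.33 in young and 8 in middle-aged libraries, so the higher number in middle-aged libraries was not seen among the best peaks. The means were 10.7 in young and 18.3 in middle-aged libraries at a −log10 q of at least 5. With lists thinned to the lowest background they were 11.3 and 22.3.

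Of the 36 regions, 8 lay at a protein-coding TSS of the gene itself, 2 at that of another gene and 26 away from any protein-coding TSS, though 2 of these lay within 1 kb of the TSS of a gene of another type (Gm29101, and Gm16063 with Tbx3os1). All 6 libraries held 7 of them (19.4%) beside 35.1% of all regions. More middle-aged than young libraries held 23 of them (63.9%) beside 47.1% of all regions, and fewer held 2 (5.56%) beside 9.02%. Regions called in all 6 libraries can count in neither share, and they were a smaller part of the 36 than of all regions. The shares were not compared with such regions left out. Of the 26 regions away from a protein-coding TSS, 3 were called in all 6 libraries. Besides the regions in Asb6 and Bcas3, that was a region 40.2 kb upstream of Prrx2 in an exon of 1700001O22Rik, chr2:30794514-30795079. It ranked from 5.85 to 35.1 in young and from 37.4 to 54.6 in middle-aged libraries in the whole lists. Among the shared regions its ranks overlapped, at 1.01, 7.08 and 21.2 against 6.62, 18.2 and 12.1 (means 9.76 and 12.3, limma adjusted p = 0.969). All 3 regions lay inside other protein-coding genes, as did 9 of the 36.

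**Figure D3:**
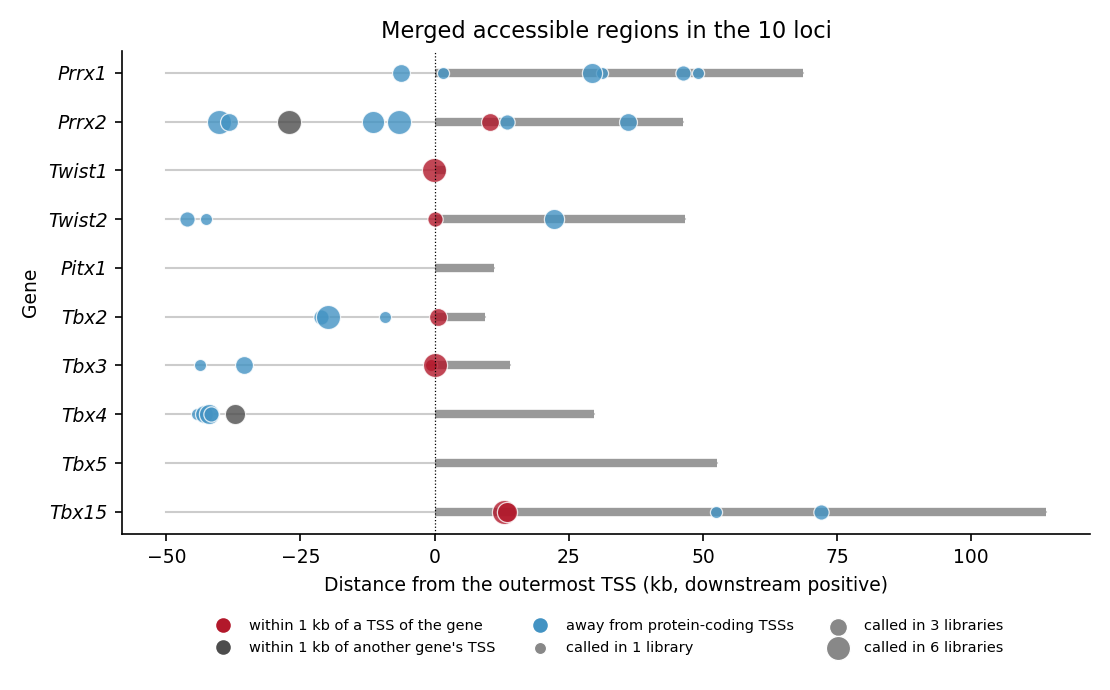
Merged regions in the 10 loci by distance of their midpoint from the outermost TSS (kb, downstream positive). Thick grey bars are gene bodies, thin lines the 50 kb upstream, larger circles mark regions called in more libraries, and colour gives the position. Twist1 has a single region at its TSS, Prrx1 has 5 of 6 in the gene body, the 5 Tbx4 regions lie 37.1 to 44.3 kb upstream, and Pitx1 and Tbx5 are empty.

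The femur and tibia are hindlimb bones, so the hindlimb factors Pitx1 and Tbx4 were compared with the forelimb factor Tbx5 within each library. Pitx1, which specifies hindlimb type, and Tbx5, which starts forelimb outgrowth, had 0 peaks in their loci in every library, a state shared by 17.6% of all genes. Tbx4, a target of Pitx1 in the hindlimb, had 2, 2 and 1 peaks in young libraries against 2, 4 and 3 in the middle-aged ones. Its density was 2.93 ± 1.30 (SD, n = 6) peaks per 100 kb, higher than Tbx5 by 1.26 to 5.02 in 6 of 6 libraries. The difference between Pitx1 and Tbx5 was 0 in all 6. With Tbx5 at 0 in every library, a single Tbx4 peak per library fixes the exact sign permutation test at its smallest p (0.03125, or 0.0625 adjusted over the 2 comparisons), so these differences are a description and no test is read from them.

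None of the Tbx4 peaks lay in the gene. Its 5 regions begin 0.031 to 7.19 kb past the end of Tbx2, which precedes it on the chromosome, and 1 of them lies at the TSS of Gm11444. The sequence printed above for Tbx4 belongs to the region at chr11:85844170-85844430, 2.22 kb past the end of Tbx2, called in young 2 and all middle-aged libraries at ranks of 16.3 to 39.4. With peaks at the TSS of other genes left out, the difference between Tbx4 and Tbx5 was 2.09 peaks per 100 kb. With equally long lists it was 0.837.

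Beyond the loci, the nearest peak to Pitx1 lay 59.3 to 109 kb from its outermost TSS. In young 2 and middle-aged 1 it was upstream, and in the other 4 libraries it was downstream towards Pcbd2. The nearest peak to Tbx5 lay upstream towards Tbx3 in all 6 libraries, 91.2 kb away in 5 of them and 119 kb in middle-aged 2, at ranks of 42.6 to 57.3. Every library thus had a peak between Tbx3 and Tbx5, outside the window that defines the Tbx5 locus.

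**Figure D4:**
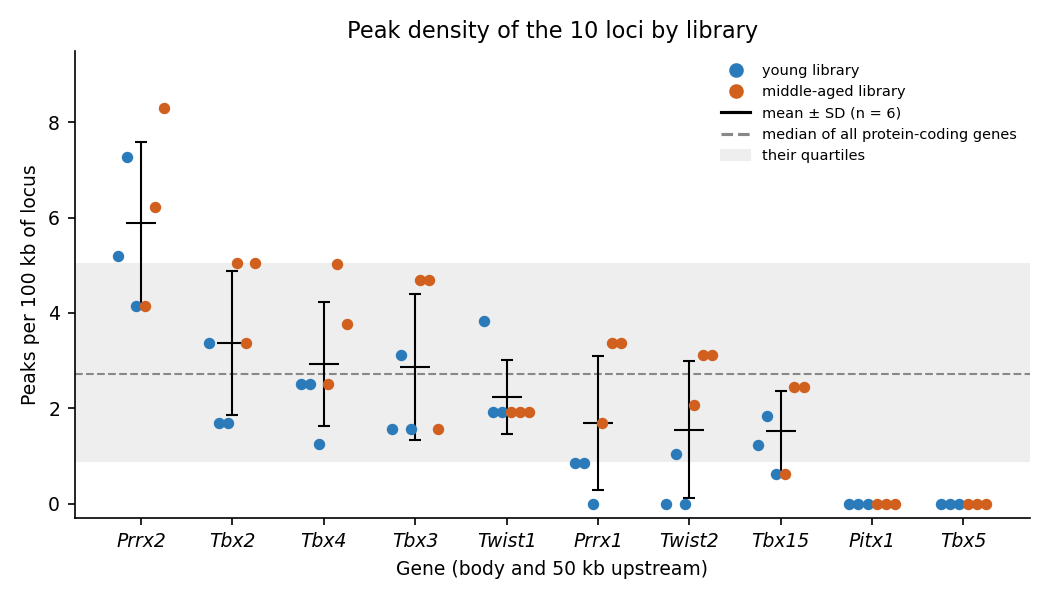
Peaks per 100 kb of locus (gene body and 50 kb upstream) in each young (blue) and middle-aged (orange) library, with mean and SD (n = 6), genes in order of their mean. The dashed line and grey band are the median and quartiles of all protein-coding genes, 2.72 with 0.902 and 5.03, and Prrx2 at 5.89 is the only gene whose mean lies above the band.

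Ordered by mean density, Prrx2 came first with 5.89 ± 1.70 (SD, n = 6) peaks per 100 kb. Tbx2 followed with 3.37 ± 1.51, Tbx4 with 2.93 ± 1.30, Tbx3 with 2.86 ± 1.53 and Twist1 with 2.24 ± 0.783. Prrx1 had 1.69 ± 1.41, Twist2 1.55 ± 1.43, Tbx15 1.53 ± 0.841, and Pitx1 and Tbx5 had 0. Of the 10 genes, 6 thus lay below the median of all genes. Between neighbours in this order, Prrx2 exceeded Tbx2 by 2.52 (SD of the difference 2.11, n = 6) and Tbx15 exceeded Pitx1 by 1.53 (SD 0.841), with Tbx15 above 0 in 6 of 6 libraries. The other neighbours differed by less than the SD of their difference over the libraries. The smallest adjusted p that a single pair among 9 could reach in the exact sign permutation test was 0.281, so the order was not settled by a test. The high density of Prrx2 came with 5 of its 8 regions inside other genes, including the TSS of Ntmt1, which ranked at 94.7 to 98.4 and was the strongest region of the 10 loci.

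Promoter sequence was compared over 500 bp either side of the outermost TSS, calling a promoter CpG-rich at a GC content of at least 50% and an observed over expected CpG ratio of at least 0.6. Twist1 (72.4% GC, ratio 0.870), Tbx3 (63.2%, 0.823), Tbx2 (70.6%, 0.756), Twist2 (67.0%, 0.802) and Pitx1 (65.6%, 0.634) were CpG-rich. Of these 5, only Twist1 and Tbx3 had a TSS peak in all 6 libraries and only Pitx1 in none, while 79.7% of all CpG-rich promoters were called in all 6 and 6.90% in none. Prrx1 (47.3%, 0.469), Prrx2 (56.9%, 0.200), Tbx4 (62.4%, 0.511), Tbx5 (48.5%, 0.425) and Tbx15 (53.5%, 0.363) were not. Of these, Tbx15 was called in all 6, at an inner TSS that lies outside the sequence compared, and Prrx1, Tbx4 and Tbx5 in none. Of all other promoters 22.6% were called in all 6 and 64.4% in none.

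The called regions themselves differed in base composition between the loci. The Tbx2 region at the TSS had a GC content of 81.7% (CpG ratio 0.943), the highest of the 36. At the inner TSS of Prrx2 the called region had 75.9% (ratio 0.857), far richer in CpG than the outermost promoter of that gene. The Tbx15 region called in every library had 56.4% (ratio 0.373). The neighbouring region over the inner TSS of Tbx15, called in 4 libraries, had 65.5% (ratio 0.922). The 5 regions upstream of Tbx4 had 55.5% to 73.2%. Of the 6 Prrx1 regions, 5 had 35.7% to 43.1%, and the exception, 1.6 kb inside the gene and called in middle-aged 2 alone, had 70.5%. The Prrx1 calls thus lay mostly in sequence poor in GC, while those at the TSSs of Tbx2, Tbx3, Twist1 and Twist2 had 64.3% or more, apart from a second Tbx3 region at 59.3% called in middle-aged 2 alone.

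Genes that work with these factors were read the same way. Of 22 partners in limb mesenchyme, 9 (40.9%) had a TSS peak in all 6 libraries, 9 in some and 4 in none. The shares of all protein-coding genes were 48.4% in all 6 and 38.5% in none. Meis1, a homeodomain factor of the proximal limb, was called throughout at ranks of 82.2 to 91.2, and Lmx1b, which specifies dorsal limb, in none. Of 8 limb ectoderm genes, none was called throughout and 7 in none, Fgf8 of the apical ridge among them, and the exception, Sp8, had peaks in middle-aged 2 and middle-aged 3. Single libraries held a TSS peak at 10 to 15 of the 22 partners and at 0 to 1 of the 8 ectoderm genes.

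Relatives by protein family were counted last, beside the same shares of all genes. Of 12 other T-box genes, 1 was called throughout, Mga, which pairs with Max, and 7 in none, including Tbx1 of the pharyngeal arches. Of 7 other Twist-like bHLH genes none was called throughout and 6 in none, Hand1 among them, and Hand2 had a peak in young 2 and young 3 only. Of 11 other paired-type homeobox genes, 3 were called throughout, 4 in some and 4 in none. Otx2, a head gene, was among those called in none. Hand2, Shox2 and Alx4 stand in a family list and among the limb partners. Sp8, Hand2 and Snap25 were named after their values were seen.

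**Figure D5:**
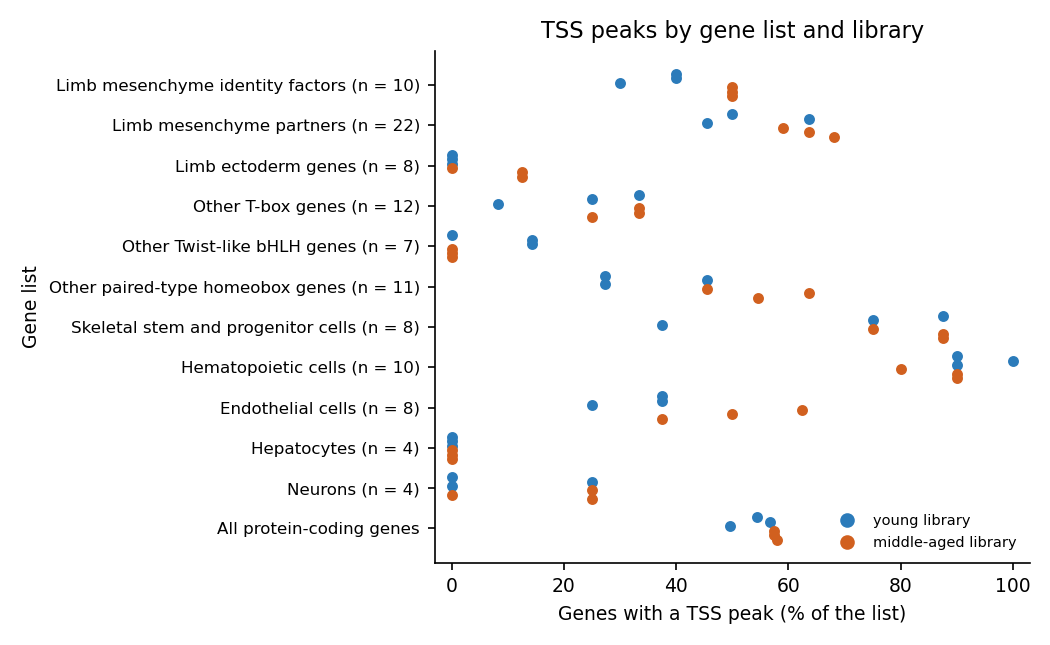
Percentage of each gene list with a TSS peak in each young (blue) and middle-aged (orange) library, beside all protein-coding genes at 49.5% to 58.0%. Hematopoietic markers lie at 80% to 100%, the 10 identity factors at 30% to 50% and hepatocyte markers at 0%.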

How the data were processed

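ATAC-seq peak lists of 3 young and 3 middle-aged SSPC libraries were used. Per the methods of the study, bcl2fastq produced the reads, Bowtie2 placed them on mm10, Sambamba dropped duplicates and MACS called peaks. Lists are per library, without pooling. A shift for the transposase offset is not given in the sources used here, and it would move edges by a few bases. The authors deposited for each peak a score (the −log10 q in whole numbers), a fold enrichment (the ratio of summit pileup to local background), a −log10 p and a −log10 q. The authors' test, DiffBind, needs reads and was not repeated.

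Summit pileup and local background were solved from fold enrichment and −log10 p under the Poisson model, to whole pileups for 100% of peaks (tolerance 0.01 in log10 p). Depth is known only through the background. Coordinates are of mm10, counted from 1. TSSs (54361) came from the GENCODE annotation of that build. Peaks overlapping by at least 1 bp were merged.

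Single values were compared by exact permutation over 20 assignments, whose smallest two-sided p is 0.1, or by exact sign permutation within libraries (64 patterns). Regions in all 6 libraries were fitted with limma (limma 3.58.1, R 4.3.3, Benjamini-Hochberg), a fit tested on simulated data. Python 3.11.15, numpy 2.4.6, scipy 1.17.1 and pandas 2.3.3 were used. All 10 members are named. Regions named are the best TSS regions, those away from any protein-coding TSS and called in all 6 libraries, age-specific ones and any limma call. Lists give as examples the first gene called throughout and the first called in none. For the paired-type homeobox list the first of these is not reported here. Regions quoted beyond this rule were chosen after their values were seen. The members, gene lists and tests were chosen with earlier results of these data known. Alternatives tried: −log10 q no lower than 5, equally long lists, thinning to the lowest background, other windows, fold enrichment or pileup instead of rank, a reciprocal overlap of 50%, a replicate block and each library left out.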

Additional observations from a re-analysis of the deposited data

How the results depend on the processing

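Cutting every list to 27628 peaks changed most. The difference in members with a TSS peak (middle-aged minus young) went from 1.33 to 0, that in peaks over the 10 loci from 10 to −0.333, and the middle-aged-specific regions from 1 to 0. At a −log10 q of at least 5 these values were 1, 7.67 and 1. With lists thinned to the lowest background they were 1.33, 11 and 1. The rank difference turned to −6.40 for Twist1 and −0.279 for Tbx3, and the locus peak difference to −0.333 for Prrx1 and Tbx3 and −0.667 for Tbx4. Among regions shared by all 6 libraries the rank difference was −2.38 for Twist1 and −0.790 for Tbx3. For Tbx15 the rank difference stayed positive under every alternative on the rank scale (16.0 to 30.7), with an exact permutation p of 0.1 to 0.25. The cause was not tested. Leaving out each library in turn gave 1 to 4 middle-aged-specific regions: 2 without young 1, 3 without young 2, 4 without middle-aged 1 and 3 without middle-aged 3. The rank difference ran from 6.72 to 16.7 for Twist1 and from 0.174 (without young 3) to 20.2 (without young 2) for Tbx3, and the Prrx2 locus difference from −0.333 (without middle-aged 3, a reversal) to 1.67 (without middle-aged 1). Peaks over the loci differed by 7.5 to 13, and Tbx4 minus Tbx5 by 2.51 to 3.26. None of the other values crossed a threshold. Of those that answer a comparison, 75 kept their direction, 31 stayed at 0 and 1 left it (Pitx1 minus Tbx5, −0.246 with 100 kb upstream). Of those for single loci, 84 kept their direction, 23 stayed at 0, 8 fell to 0 and 1 left it (Tbx5, −0.333 with 100 kb upstream). The 8 were Twist1 in 4 settings, Twist2 and Tbx15 with equally long lists, Tbx3 at a −log10 q of at least 5 and Prrx2 without young 3. Limma called 0 regions in every setting.

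In the fits with the replicate block, rank differences of Twist1 and Tbx15 gave an exact p of 0.25, the smallest 3 pairs allow, and that of Tbx3 0.75. The blocked limma fit called 0 regions, with 1761 at an unadjusted p under 0.05. Among the shared regions, ranks in libraries of the same number did not deviate together (correlations 0.00105, 0.0156 and −0.0248 over 22403 regions). Ranks within a library cannot show a shift of the whole library, so whether libraries of the same number share a batch was not tested. Depth limits all calls of absence: a summit under 8 to 13 reads could not be called.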

Other observations

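The 50 kb downstream of the 10 genes, which lie outside the loci as defined, held peaks at some of them. Prrx1, Twist1, Pitx1, Tbx5 and Tbx15 had 0 there in every library. Tbx4 had 1 in each of the 6 libraries. Tbx3 had 0, 0 and 1 in young 1, 2 and 3 against 2, 2 and 1 in middle-aged 1, 2 and 3. Twist2 had 0, 0 and 1 in young libraries against 1, 0 and 2 in the middle-aged ones, and Prrx2 had 2, 2 and 1 and 1, 3 and 2. Tbx2 had 2, 2 and 1 and 2, 4 and 3, and these are the peaks counted upstream of Tbx4.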
